A study of Mus musculus with 24 samples.

Results

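The comparison described here is the addition of olaparib to radiation in mouse squamous carcinoma tumours of 2 cell lines. Its members are the 12 irradiated tumours of a series of 24. Of these, 6 carried an identifier whose code letters stand for radiation with olaparib (IO or EIO) and 6 carried one that stands for radiation alone (I or EI). The tumours grew under the skin of female C3H mice aged 6-8 weeks after injection of about 1000000 SCC7 cells, a mouse squamous cell carcinoma line. One line overexpressed miR-21-5p (OE) and the other carried the empty vector as negative control (NC). Treatment began at a volume of about 300 mm3. All 12 tumours received X-rays at 8 Gy a day for 3 days. The combination mice also received olaparib at 50 mg/kg by intraperitoneal injection 2 h before each fraction and once more on the day after the last. Each of the 4 irradiated groups (NC IR, OE IR, NC IR+olaparib and OE IR+olaparib) held 3 tumours, and the unirradiated groups of the series (sham and olaparib alone, in both lines) serve as a reference range and in a comparison of olaparib with and without radiation. Tumours are named by their identifier, whose letters give the group (I for NC IR, EI for OE IR, IO for NC IR+olaparib and EIO for OE IR+olaparib). The labels give neither the promoter of the vector nor whether a line is a single clone. They number the mice and say nothing more on how replicates were made, so the p-values measure the spread between these 12 samples.

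Groups were read from the code letters, and the written treatment labels of the same samples go against the code. Code and written label gave the same group for 3 of the 12 tumours (EIO-713, I-736 and I-732). They differed in the line for 3, in radiation for 4 and in olaparib for 7. Every direction given here therefore rests on the identifier code. By the written labels a comparison of the same kind, over a partly different set of 12 tumours, gave 0 called genes and 340 at an unadjusted p under 0.05.

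Olaparib blocks PARP1 and PARP2, enzymes that sense single-strand DNA breaks, attach chains of ADP-ribose to themselves and nearby proteins and so recruit repair factors such as XRCC1 and DNA ligase III. It also holds the PARP protein on the DNA, and a replication fork that meets such a lesion can be left with a double-strand break, which is repaired by homologous recombination, by classical end joining or by alternative end joining through polymerase theta. X-rays make both kinds of break, and PARP inhibitors are known as radiosensitizers. Unrepaired DNA that reaches the cytosol can be read by cGAS and STING, which switch on type I interferon and, through its receptor, a set of antiviral genes. Damage also activates p53, which induces Cdkn1a, the inhibitor of cyclin-dependent kinases that halts division.

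The microRNA that separates the lines is shown because it names the OE line, with its seed (bases 2 to 8) in capitals. It lies on GRCm38.p6 at chr11:86584120-86584141, minus strand, and the sequence is RefSeq's.
mmu-miR-21a-5p: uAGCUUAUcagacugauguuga

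The promoters below are shown because their genes belong to the interferon-induced group that the results turn on, the first 3 as members that hold a motif known from such genes and Cmpk2 as one that does not. Each is the 250 bases before the start that the RefSeq promoter table (GRCm38.p6) gives for the gene, printed in the gene's own direction. For Ifit3 and Cmpk2 that start lies inside the annotated span of the gene, which the window therefore overlaps. Capitals mark matches to GAAANNGAAA or to its other strand TTTCNNTTTC, letters found in elements bound by interferon-activated factors. Overlapping matches were merged. Ifit1 is read from chr19:34640639-34640888 on the plus strand, Ifit3 from chr19:34583279-34583528 on the plus strand, Isg15 from chr4:156200819-156201068 on the minus strand and Cmpk2 from chr12:26468965-26469214 on the plus strand.
Ifit1: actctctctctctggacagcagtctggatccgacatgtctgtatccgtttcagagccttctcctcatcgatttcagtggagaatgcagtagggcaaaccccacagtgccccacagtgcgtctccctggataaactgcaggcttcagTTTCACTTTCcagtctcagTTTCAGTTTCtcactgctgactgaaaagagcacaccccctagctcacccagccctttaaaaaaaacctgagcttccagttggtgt
Ifit3: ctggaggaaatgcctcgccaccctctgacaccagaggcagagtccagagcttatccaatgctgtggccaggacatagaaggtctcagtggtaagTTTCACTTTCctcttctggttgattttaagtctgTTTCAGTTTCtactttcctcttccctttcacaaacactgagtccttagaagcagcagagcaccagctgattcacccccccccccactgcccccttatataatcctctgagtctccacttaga
Isg15: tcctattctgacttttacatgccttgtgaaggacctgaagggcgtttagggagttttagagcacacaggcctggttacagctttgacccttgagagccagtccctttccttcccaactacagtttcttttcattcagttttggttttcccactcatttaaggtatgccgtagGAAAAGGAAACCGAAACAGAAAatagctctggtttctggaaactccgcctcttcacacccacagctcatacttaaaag
Cmpk2: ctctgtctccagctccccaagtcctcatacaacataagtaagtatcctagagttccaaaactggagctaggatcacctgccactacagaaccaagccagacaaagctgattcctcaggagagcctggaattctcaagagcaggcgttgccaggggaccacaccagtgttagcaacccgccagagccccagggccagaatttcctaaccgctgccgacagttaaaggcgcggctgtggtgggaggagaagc
Of the 34 tested genes of the type I interferon list, 26 had a promoter in the table and 11 of these (42.3%) held the motif in this window. The share was 2.78% (346 of 12451) over all tested genes with a promoter and 3.04% (821 of 27025) over the whole table. It was found in 1 of 19 promoters of the sterol list and in 0 of 30 of the DNA replication list. Cmpk2, Ifi44, Ifitm3, Irf7 and Oasl2 were among the members without a match. A match describes the letters only.

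The 12 libraries held between 37099055 and 40004502 counts assigned to genes. The arms did not differ beyond their spread in any of 5 library measures (exact permutation test within line, two-sided, 400 arrangements, smallest possible p = 0.005). The lowest p was 0.09 for total counts (0.45 after Benjamini-Hochberg adjustment over the 5).

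A few tumours stood apart, and the results are given with and without them where they matter. EIO-744 was led by collagen genes. A list of 24 fibroblast and collagen genes took 13.8% of its counts against 0.882% to 1.55% in the other 11 tumours. Its epithelial keratins Krt8 and Krt18 stood at 0.285 and 0.316 CPM (counts scaled to the effective library size), against 141 to 743 and 35.0 to 459 CPM in the other 11, so these tumour cell markers were nearly absent from that library. Its level of Mki67, a marker of dividing cells, was 21.5 CPM. I-732 held skeletal muscle genes at 2.27% of counts, the next radiation-alone tumour being at 0.235% and EIO-744 at 0.539%. I-739 stood apart in the p53 genes, although its code (NC IR) and its written label (NC IR+olaparib) both give it as irradiated. Its Cdkn1a stood at 332 CPM, within the 184 to 342 CPM of the 12 unirradiated tumours. The other 11 irradiated tumours lay between 602 and 765 CPM. Of 42 p53 targets, 8 were above all unirradiated tumours in I-739 and 17 to 26 in each of the others. Defining markers of squamous epithelium were low in most tumours: the basal keratins Krt5 and Krt14 were at or under 2.56 and 3.25 CPM in 9 of the 12 tumours and reached 51.7 to 107 and 77.9 to 149 CPM only in I-736, IO-731 and EIO-744.

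No gene was called different between the 6 combination tumours and the 6 tumours with radiation alone. Of 16114 genes tested with edgeR's quasi-likelihood test with the line as a covariate, 0 had an adjusted p under 0.05 (0%). The smallest Benjamini-Hochberg adjusted p was 0.908. At an unadjusted p under 0.05 the test held 363 genes, 252 higher with olaparib (1.56% of those tested) and 111 lower (0.689%). DESeq2 called 0 genes as well, with 566 at an unadjusted p under 0.05, and limma with quality weights called 0, with 487. The errors below are those of single genes, before any adjustment over the 16114 tested. Among 13454 genes of at least 1 CPM the median standard error was 0.19 on the log2 scale, and its 90th percentile was 0.66. The unadjusted 95% interval lay within 1 log2 unit of zero in 72.8%. A difference of 1 log2 unit in a gene could still go uncalled after adjustment. All log2 differences below are fitted values of combination minus radiation alone, with their standard error (SE), and none passed adjustment.

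**Figure D1:**
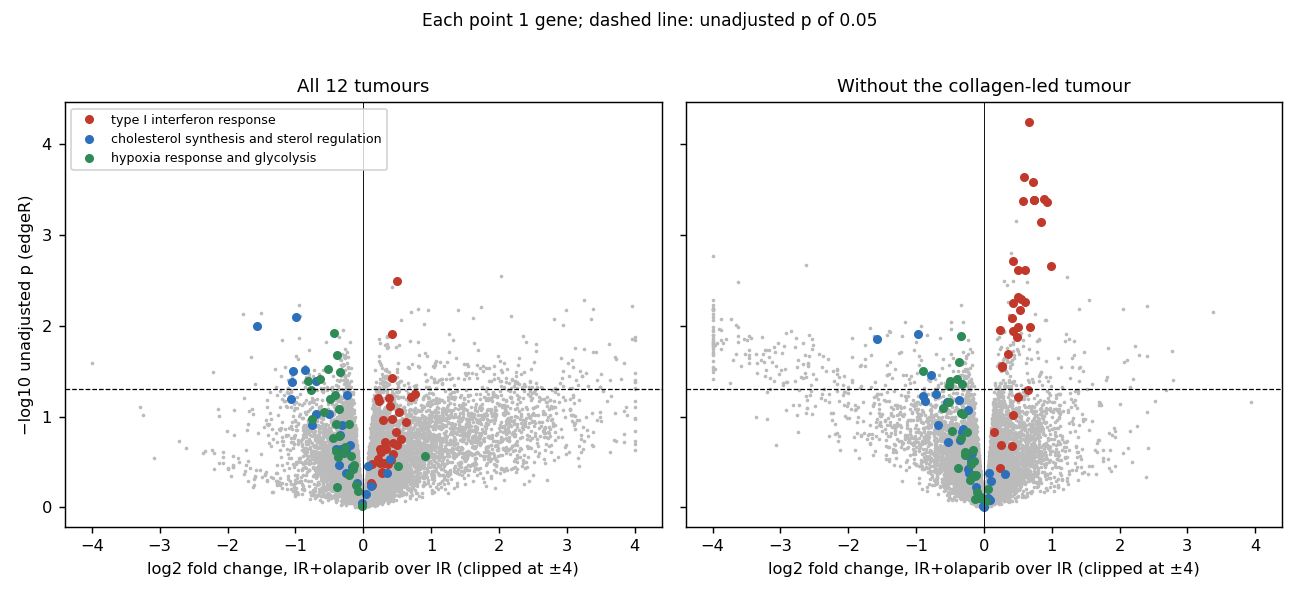
Each point is 1 tested gene, with the fitted log2 difference (IR+olaparib minus IR, clipped at 4) on the x axis and the unadjusted edgeR p as −log10 on the y axis, for all 12 tumours (left) and without the collagen-led tumour (right); the dashed line marks the unadjusted threshold. The type I interferon genes lie to the right of zero in both panels, and 3 of them pass the dashed line on the left and 27 on the right, while most sterol and glycolysis genes lie to the left of zero.

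Leaving out the collagen-led tumour moved the side on which small p-values fell. Without EIO-744 there were 0 called genes among 16467, with 179 higher at an unadjusted p under 0.05 (1.09%) and 284 lower (1.72%). Without both it and I-739, a combination chosen after the data were seen, there were 0 called genes among 16319, with 257 higher (1.57%) and 380 lower (2.33%). The smallest adjusted p in that edgeR fit was 0.156. Differences of more than 1 log2 unit were fitted for 916 of the genes of at least 1 CPM, 816 of them higher, and for 332 without the collagen-led tumour, 87 of them higher.

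In 5 genes all 6 combination tumours lay above all 6 radiation-alone tumours (0.031% of the tested genes), and in 4 they all lay below (0.0248%). The 5 were Ccl24 (an eosinophil-attracting chemokine), Col8a2 (a collagen chain), Neu3 (a membrane sialidase), Nlgn3 (a neuronal adhesion protein) and Rnf138 (a ubiquitin ligase that acts in DNA end resection). Ccl24 ranged from 0.433 to 0.977 CPM with radiation alone and from 1.03 to 7.88 CPM with olaparib. The collagen-led tumour held the highest value, and the log2 difference was 1.62 ± 0.51 (SE), or 0.90 without that tumour. Neu3 ranged from 3.39 to 3.95 CPM against 4.17 to 5.47 CPM (0.37 ± 0.15), and Rnf138 from 12.0 to 13.5 CPM against 13.8 to 19.8 CPM (0.30 ± 0.13). The groups were separate in Neu3 and Rnf138 by a narrow gap. Col8a2 and Nlgn3 were highest in the collagen-led tumour at 2.50 and 1.33 CPM. The next combination tumour stood at 0.397 CPM for Col8a2 and 0.299 CPM for Nlgn3, near the floor. The 4 below were Ankrd34a, the predicted gene Gm32315, Gsk3a (a kinase of glycogen metabolism) and Suds3 (a subunit of a histone deacetylase complex). Suds3 lay between 83.7 and 102 CPM with radiation alone and between 72.5 and 82.5 CPM with olaparib, a log2 difference of −0.20.

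The summed level of genes induced by type I interferon stood higher in 5 of the 6 combination tumours, least in EIO-749, and low in the collagen-led one. The list had 36 entries, of which 34 were in the table and passed the filter on low counts. All 34 had a fitted difference above 0, where 8329 of all 16114 genes did, and their median was 0.347 against 0.01 over all genes. At an unadjusted p under 0.05, 3 of the 34 were higher, namely Oas2, Oasl2 and Trim30a. Without EIO-744 the number was 27 of 34, against 1.09% of all tested genes, with a median of 0.505. Without I-739 as well it was 29, against 1.57%, with a median of 0.525. Without I-739 alone it was 3, with a median of 0.355. Leaving out EI-752 or EIO-749 gave a count of 5, and leaving out IO-726 or EI-745 gave 3. The count was 2 when any of I-732, I-736, IO-728, IO-731, EI-742 or EIO-713 was left out, with a median of 0.223 without EIO-713. With no filter on low counts it was 2, against 546 of 26623 genes. In the fit on all 24 tumours it was 1, against 1159 of 16560 genes. With all 12 tumours kept, limma with quality weights, which gives less weight to libraries that vary more, put 29 of the 34 higher at an unadjusted p under 0.05 (median 0.509), against 1.77% of all genes in that fit. The count thus depended most on whether and how the collagen-led tumour entered, while the fitted sign of all 34 held in every additive fit run. In bulk tumours fewer cells of a type and less RNA per cell cannot be told apart.

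The summed share of the list shows the same pattern tumour by tumour. With radiation alone it took 0.367%, 0.415% and 0.431% of counts in NC tumours I-732, I-736 and I-739, and 0.415%, 0.402% and 0.428% in OE tumours EI-742, EI-745 and EI-752. With olaparib it took 0.497%, 0.672% and 0.668% in NC tumours IO-726, IO-728 and IO-731, and 0.623%, 0.210% and 0.449% in OE tumours EIO-713, EIO-744 and EIO-749. The 6 radiation-alone tumours were close together, 5 combination tumours lay above all of them and tumour EIO-744 lay below all. Counted by gene, 18 of 34 members in tumour IO-726, 32 in IO-728, 29 in IO-731, 29 in EIO-713 and 11 in EIO-749 exceeded every radiation-alone tumour. In tumour EIO-744, 1 did and 28 were below every radiation-alone tumour. In EIO-749, 4 were below every radiation-alone tumour and 24 were above their median. The unirradiated tumours of both lines together spanned 0.175% to 0.503%. The radiation-alone tumours and, of the combination tumours, IO-726, EIO-749 and EIO-744 lay within that range. By line, unirradiated NC tumours spanned 0.305% to 0.503% and unirradiated OE tumours 0.175% to 0.430%. EIO-749 at 0.449% thus lay above every unirradiated tumour of its own line.

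**Figure D2:**
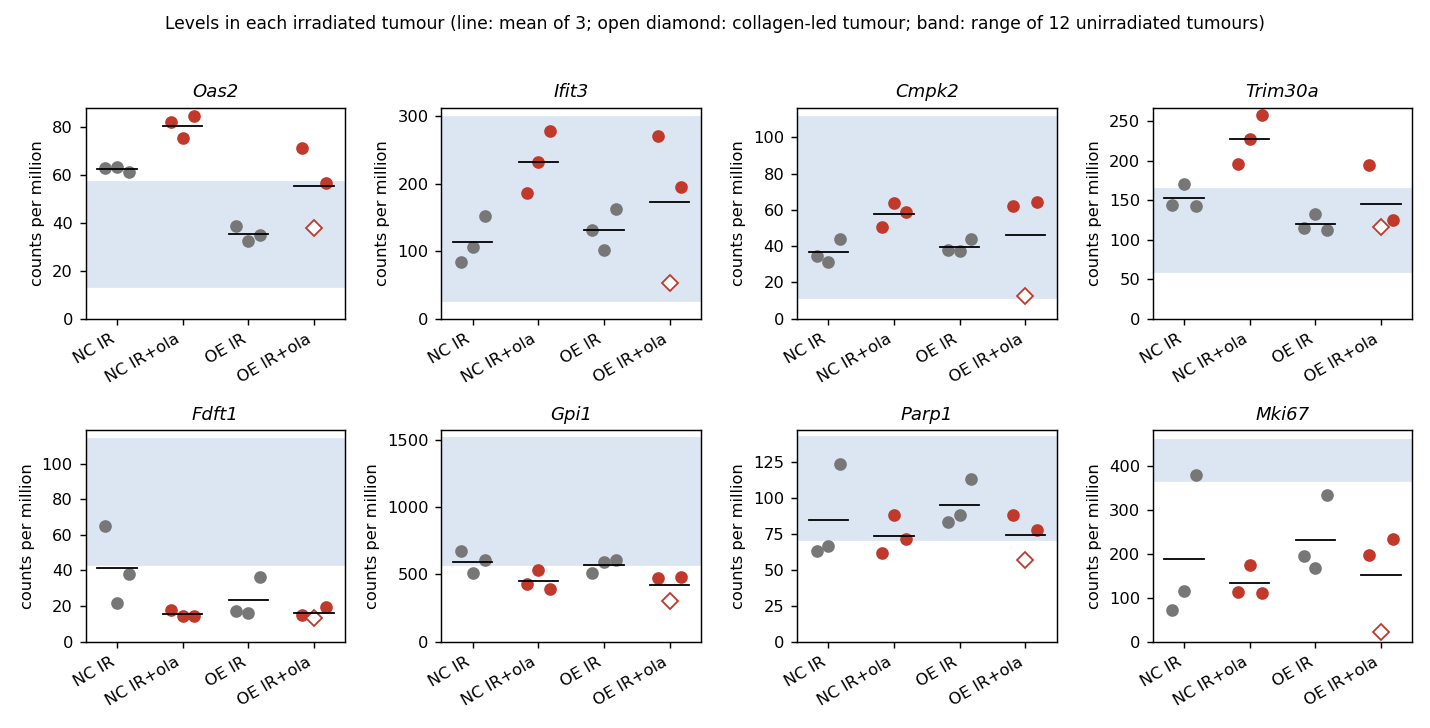
Levels (y axis, counts per 1000000) of 8 genes in each of the 12 tumours by group (x axis): points are tumours, lines are means of 3, the open diamond is EIO-744 and the band is the range of the 12 unirradiated tumours. In Oas2, Ifit3 and Cmpk2 the tumours given olaparib lie above those of the same line given radiation alone except EIO-744, while in Parp1 and Mki67 the groups overlap.

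Oas2 makes an RNA-triggered enzyme that activates RNase L (chr5:120730333-120749886, GRCm38.p6). It stood at 62.7, 63.2 and 61.3 CPM in NC IR tumours and at 81.9, 75.2 and 84.4 CPM in NC IR+olaparib tumours. In OE IR tumours it was 38.7, 32.5 and 34.8 CPM, and in OE IR+olaparib tumours 71.2 (EIO-713), 37.6 (EIO-744) and 56.8 CPM (EIO-749). The NC groups did not overlap, and in OE only tumour EIO-744 lay among the radiation-alone values. The log2 difference was 0.50 ± 0.13 (SE) with a 95% interval of 0.21 to 0.80, and 0.59 ± 0.11 without tumour EIO-744.

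Ifit3, whose product binds antiviral signalling adaptors (chr19:34583119-34588982), stood at 83.9, 106 and 153 CPM in NC IR and at 131, 102 and 162 CPM in OE IR tumours. With olaparib it stood at 186, 232 and 278 CPM in NC and at 272, 52.8 and 195 CPM in OE. All combination tumours but EIO-744 were above all radiation-alone tumours, and EIO-744 was the lowest of the 12. The log2 difference was 0.70 ± 0.34 and, without tumour EIO-744, 0.93 ± 0.19. Its promoter, printed above, holds 2 separate runs of the interferon motif.

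Ifit1, which binds foreign RNA ends (chr19:34640889-34650009), showed the same order. It ranged from 75.7 to 128 CPM with radiation alone (median 85.0) and from 41.3 to 188 CPM with olaparib (median 148). The lowest of the combination tumours was EIO-744 and the other 5 were above every radiation-alone value. Cmpk2, a mitochondrial nucleotide kinase induced by interferon, ranged from 31.2 to 44.1 CPM (median 37.6) against 12.5 to 64.3 CPM (median 60.7). Again only tumour EIO-744 was below. The log2 difference of Cmpk2 was 0.44 ± 0.32, and 0.67 ± 0.10 without that tumour. Without tumour EIO-744, 20 genes had all 5 combination tumours above all 6 others (0.124% of the tested genes) and 9 had all below (0.0559%). The 20 included 5 of the 34 interferon genes (Cmpk2, Ifi44, Ifit1, Ifit3 and Ifitm3).

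Trim30a and Oasl2 separated the NC groups, while their OE groups overlapped. Trim30a, a regulator of innate signalling, stood at 144, 170 and 143 CPM in NC IR and 196, 228 and 257 CPM in NC IR+olaparib tumours. In OE it was 115, 132 and 113 CPM with radiation alone and 194, 116 and 124 CPM with olaparib. In OE, tumour EIO-713 alone was above all radiation-alone values. The log2 difference was 0.42 ± 0.14 (95% interval 0.11 to 0.73).

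Isg15, a ubiquitin-like modifier whose promoter is printed above, did not separate the arms. It ranged from 29.0 to 95.9 CPM with radiation alone and from 25.3 to 103 CPM with olaparib, and the difference was 0.41 ± 0.38 with a 95% interval of −0.42 to 1.24. The interferon regulatory factor Irf7 was at 0.43 ± 0.36. Without tumour EIO-744 the fitted values were 0.64 for Isg15 and 0.68 for Irf7.

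Several genes outside the list that interferon is known to induce were among the 10 of smallest p in the higher direction. Tnfsf10, the death ligand TRAIL, ranged from 14.4 to 20.9 CPM with radiation alone (median 18.0) and from 11.5 to 46.4 CPM with olaparib (median 39.9). Only tumour EIO-749 lay below the radiation-alone tumours, tumour EIO-744 was the highest, and the difference was 0.95 ± 0.29. Slfn5, of the Schlafen family, ranged from 243 to 325 CPM against 297 to 452 CPM, with 5 combination tumours above all others (0.43 ± 0.12). Mndal, of the family of cytosolic DNA-binding Ifi200 proteins, was at 0.55 ± 0.17.

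No difference was detected in the genes upstream of this response. Reads of Ifnb1, interferon beta, numbered 0 to 3 in each radiation-alone library and 0 to 9 in each combination library, and the 4 Ifna genes together had at most 1 read in any library, so a difference in interferon transcripts was not detectable at this depth. Cgas was at −0.19 ± 0.29 (95% interval −0.82 to 0.44) and Sting1 at 0.08 ± 0.18 (−0.32 to 0.47). The chemokine genes Cxcl10 and Ccl5, which lie downstream as known targets of this pathway, were at −0.06 ± 0.42 and 0.13 ± 0.35. Their groups overlapped widely (31.8 to 103 CPM against 19.4 to 95.8 CPM for Cxcl10). Without tumour EIO-744 they were at 0.17 and 0.38. These pooled values average lines of opposite sign, with 0.44 and 0.74 in NC and −0.55 and −0.48 in OE. In OE without tumour EIO-744 they were at −0.18 and −0.08.

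Antigen presentation genes lay mostly above 0 over both lines together, more so in NC than in OE, with groups that overlapped. The MHC class I list had 21 of 22 members above 0 with a median of 0.122, and H2-D1, a class I heavy chain, ranged from 501 to 988 CPM against 830 to 1157 CPM (0.27 ± 0.17, 95% interval −0.11 to 0.65). I-739 was the lowest of the 12 for H2-D1. The MHC class II list had 12 of 13 above 0 with a median of 0.386 and none at an unadjusted p under 0.05. Its activator Ciita ranged from 12.8 to 82.4 CPM against 3.30 to 113 CPM, and the values of the arms were interleaved. Cd274, which encodes the checkpoint ligand PD-L1, was at 0.42 ± 0.33 with a 95% interval of −0.31 to 1.15. By line, the class I list had 22 of 22 members above 0 in NC (median 0.383) and 6 in OE (−0.097). The class II list had 12 of 13 above 0 in NC (median 0.843) and 5 in OE (−0.020). Without tumour EIO-744 the OE tumours had 17 class I members above 0 (median 0.059) and 9 class II members (0.100).

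**Figure D3:**
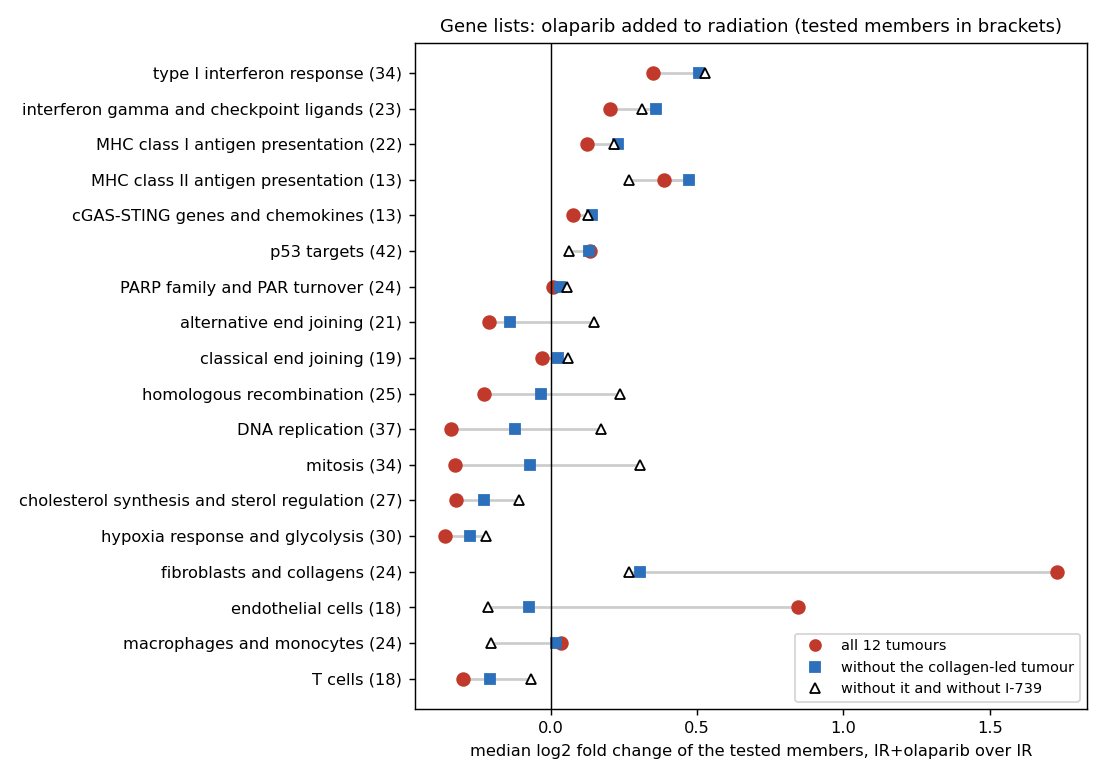
Median fitted log2 difference (x axis) of the tested genes in 18 lists, with all 12 tumours (circles), without the collagen-led tumour EIO-744 (squares) and without it and I-739 (triangles). The interferon list is above zero in both (0.347 and 0.505), while the fibroblast list is at 1.73 with tumour EIO-744 and at 0.303 without it.

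The PARP genes that olaparib targets did not differ beyond their spread. Parp1 (chr1:180568891-180600999) stood at 63.3, 66.3 and 123 CPM in NC IR, 83.5, 87.8 and 113 CPM in OE IR, 61.4, 87.8 and 71.1 CPM in NC IR+olaparib and 88.0, 56.9 and 77.6 CPM in OE IR+olaparib tumours. The groups overlapped, with I-739 the highest and tumour EIO-744 the lowest. The difference was −0.28 ± 0.19 with a 95% interval of −0.70 to 0.14. Parp2, its close relative, was at −0.07 with an interval of −0.32 to 0.17. Parg, which removes the ADP-ribose chains, was at 0.06 with an interval of −0.10 to 0.22. Of 24 genes of PARP family and chain turnover, 12 were above 0 (median 0.006). Without tumour EIO-744, 2 were higher at an unadjusted p under 0.05, against 1.09% of all genes. They were the interferon-inducible members Parp9 and Parp12 (0.32 and 0.31, chosen by name after their values were seen). Without I-739 alone none was. Without both tumours 5 were higher, against 1.57% of all genes in that fit, and 1 was lower, against 2.33%.

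Among the repair routes, most members lay slightly below 0, and this leaning turned with the tumours that entered. The alternative end joining list, the route in the study's title, had 3 of 21 members above 0 with a median of −0.213, and 14 above 0 with a median of 0.146 without tumours EIO-744 and I-739. Limma with quality weights put 11 of the 21 above 0 (median 0.002). Polq, the polymerase of this route, ranged from 1.89 to 13.2 CPM with radiation alone and from 1.01 to 7.02 CPM with olaparib, I-739 holding the highest value and tumour EIO-744 the lowest. The difference was −0.53 ± 0.50 with an interval of −1.63 to 0.58, and 0.27 without both tumours. Lig3, its ligase, was at −0.21 ± 0.14 and the scaffold Xrcc1 at −0.23 ± 0.12. None of these is a difference beyond the spread between tumours.

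Homologous recombination had 5 of 25 members above 0 (median −0.228) and, without both tumours, 20 of 25 (median 0.237). Brca1 was at −0.39 ± 0.50 and Brca2 at −0.24, while without both tumours they were at 0.26 and 0.36. Trp53bp1, which steers breaks toward classical end joining, ranged from 47.1 to 84.5 CPM against 36.4 to 69.5 CPM (−0.11 ± 0.17). The classical end joining list had a median of −0.032. The only repair gene of these lists at an unadjusted p under 0.05 was Ung, the uracil glycosylase of base excision repair (−0.85 ± 0.38, and −0.31 without both tumours).

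Replication and mitosis genes turned in sign with the same pair of tumours and with the weighting of the libraries. In the DNA replication list 0 of 37 members were above 0 with all 12 tumours (median −0.341), 1 without tumour EIO-744 (−0.124), 3 without I-739 (−0.08) and 36 without both (0.170). In the mitosis list the numbers were 0 of 34 (median −0.329), 11 (−0.071), 12 (−0.043) and 34 (0.304). No member of either list was at an unadjusted p under 0.05 with all 12 tumours. Limma with quality weights over all 12 put 23 of 37 replication genes (median 0.026) and 27 of 34 mitosis genes (0.058) above 0. Mki67 stood at 72.4, 115 and 380 CPM in NC IR, 195, 167 and 335 CPM in OE IR, 113, 175 and 110 CPM in NC IR+olaparib and 198, 21.5 and 233 CPM in OE IR+olaparib tumours. I-739 was the highest and tumour EIO-744 the lowest, and the other 10 overlapped (−0.57 ± 0.53).

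The p53 targets lay slightly above 0. Of 42, 30 were above 0 with a median of 0.135, and 2 were higher at an unadjusted p under 0.05, Plk2 (0.25 ± 0.11) and Zmat3 (0.23 ± 0.10), against 1.56% of all genes. That number was 0 without any one of I-732, I-739, EI-752, IO-726 or IO-731, 1 without EI-742, EI-745 or IO-728, and 4 without I-736 or EIO-744. Cdkn1a ranged from 332 to 764 CPM with radiation alone (median 712) and from 682 to 765 CPM with olaparib (median 751). Apart from I-739 the arms held much the same level, and the difference of 0.20 ± 0.17 was 0.07 without that tumour. Mdm2, the p53 ubiquitin ligase, was at 0.18 ± 0.30 and Ccng1 at 0.09. For Mdm2 the tumour EIO-744 was the lowest of the 12 at 139 CPM, and without it the value was 0.38.

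Several genes of sterol synthesis, the pathway to cholesterol, stood lower in the combination arm, none past adjustment. The summed share of the list overlapped between the arms (0.15% to 0.18% of counts against 0.132% to 0.183%), but most of its members leaned one way. Of 27 tested members, 5 were above 0 (median −0.326), and 6 were lower at an unadjusted p under 0.05, Fdft1, Fdps, Cyp51, Srebf2 and Idi1 among them, against 0.689% of all genes. That number was 11 without I-732, 3 without IO-728, EIO-713 or EIO-744, and 2 without I-739, EI-752 or IO-731. Limma with quality weights put 2 lower, against 1.25% of all genes, with a median of −0.076. Fdft1, squalene synthase (chr14:63145150-63181687), stood at 64.6, 21.6 and 37.7 CPM in NC IR and 17.1, 16.3 and 36.3 CPM in OE IR tumours. With olaparib it stood at 17.6, 14.3 and 14.6 CPM in NC and 14.7, 13.3 and 19.4 CPM in OE. The NC groups did not overlap, the OE groups did, and all 12 values but that of I-732 were below the 42.7 to 114 CPM of unirradiated tumours. The difference was −0.99 ± 0.31 with a 95% interval of −1.67 to −0.31.

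Fdps was at −0.86 ± 0.35, Cyp51 at −1.03 ± 0.42, Srebf2 (the transcription factor of the pathway) at −0.70 ± 0.30 and Idi1 at −1.05 ± 0.45. Without tumours EIO-744 and I-739 these 4 were at −0.32, −0.38, −0.23 and −0.36, and the list had 3 lower members and a median of −0.109.

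Glycolysis and hypoxia genes showed a similar lean. Their summed share overlapped between the arms (0.621% to 0.928% of counts against 0.323% to 0.911%), with tumours IO-728 and EIO-749 among the radiation-alone values. Of 30 tested members, 2 were above 0 (median −0.362), and 6 were lower at an unadjusted p under 0.05 (Gpi1, Pdk1, Gapdh, Egln1, Slc2a1 and Bnip3), against 0.689% of all genes. That number was 14 without EIO-749, 3 without I-739, 2 without IO-726, IO-731 or EIO-713, and 1 without EI-752. Gpi1, the second enzyme of glycolysis (chr7:34201327-34230336), stood at 672, 512 and 604 CPM in NC IR, 508, 593 and 605 CPM in OE IR, 426, 533 and 393 CPM in NC IR+olaparib and 472, 301 and 482 CPM in OE IR+olaparib tumours. The OE groups were separate and in NC only tumour IO-728 overlapped. The difference was −0.43 ± 0.14. Slc2a1, the glucose transporter, ranged from 81.9 to 198 CPM (median 117) against 55.3 to 139 CPM (median 64.7), with tumours IO-728 and EIO-749 among the radiation-alone values (−0.63 ± 0.27). Pdk1, a mitochondrial kinase that inhibits pyruvate dehydrogenase, was at −0.38 ± 0.14 and the oxygen sensor Egln1 at −0.34 ± 0.14. The count of Gapdh is uncertain, because this gene has many near-identical copies between which reads can be shared. Without tumours EIO-744 and I-739 the list had 3 lower members and a median of −0.221.

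Cell type markers moved mostly with single tumours. All 24 fibroblast and collagen genes were above 0 (median 1.73), against 21 with a median of 0.303 without tumour EIO-744. All 18 endothelial genes were above 0 (0.846) with it and 4 without it (−0.076). The muscle list was at −0.747, and at −3.39 without tumour EIO-744, with the muscle-rich I-732 in the other arm. T cell markers were above 0 in 3 of 18 (−0.303), with summed shares of 0.0109% to 0.033% of counts against 0.00921% to 0.0516%, so the arms overlapped. Macrophage and monocyte markers were above 0 in 14 of 24 (0.035) and in 12 without EIO-744 (0.016). Without I-739 alone 7 of these markers were above 0 (−0.114), and without EIO-744 and I-739 together 4 were (−0.204). Among them Ly6c2, of inflammatory monocytes, ranged from 6.53 to 28.9 CPM against 6.78 to 76.5 CPM (1.18 ± 0.47). Beside the interferon genes, then, T cell and macrophage shares overlapped between the arms, and their part in the interferon levels was not tested.

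Other genes of smallest p included complement and signalling genes. The complement genes C2 and Masp1 were at 0.70 ± 0.21 and 0.80 ± 0.24. C2 ranged from 48.9 to 114 CPM with radiation alone and from 85.2 to 193 CPM with olaparib, so the arms overlapped. In the lower direction, Rasd2, a small G protein, was at −1.51 ± 0.46, Lamb3, a laminin chain of the epithelial basement membrane, at −0.95 ± 0.33 and Unc5b, a netrin receptor, at −0.55 ± 0.19. The drug efflux genes Abcb1a and Abcb1b, whose products export olaparib, were at −0.08 ± 0.24 and −0.20, and Abcg2 was at 0.61 ± 0.46 with tumour EIO-744 and at −0.01 without it. Vmp1, the host gene of the microRNA, was at 0.00 ± 0.17, and its target Pdcd4 at 0.65 ± 0.37, or 0.19 without tumour EIO-744.

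Within each line the test again called no gene. In NC tumours edgeR called 0 genes, with 323 at an unadjusted p under 0.05 (120 higher and 203 lower). In OE tumours it called 0, with 1363 (1268 higher and 95 lower), and without tumour EIO-744 that number was 185. DESeq2 called 0 genes in NC and 53 in OE, all higher. In 50 of the 53 the highest of the 12 tumours was EIO-744, and 2 genes were called without it. The test of a difference between the lines called 0 genes, with 788 at an unadjusted p under 0.05 and 359 without tumour EIO-744.

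**Figure D4:**
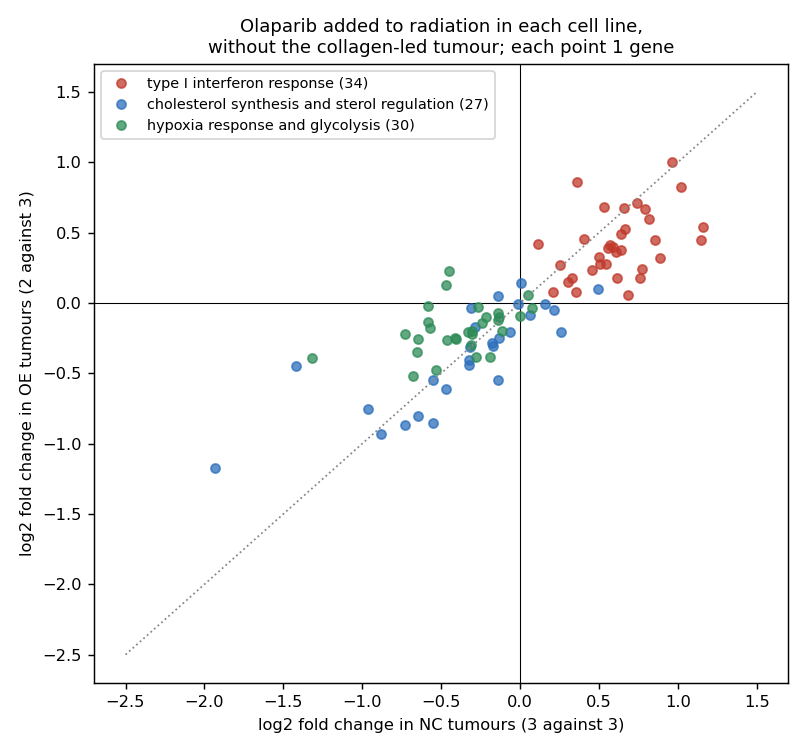
Fitted log2 difference of olaparib added to radiation in NC tumours (x axis, 3 against 3) and in OE tumours without EIO-744 (y axis, 2 against 3), each point 1 gene of the interferon, sterol or glycolysis list, with the dotted line marking equal values. All 34 interferon genes lie above zero on both axes, with an OE median of 0.391, and most sterol and glycolysis genes lie below zero on both.

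The interferon list had a median of 0.611 in NC (34 of 34 above 0) and of 0.087 in OE (24 of 34), and of 0.391 in OE without tumour EIO-744 (34 of 34). The sterol list was at −0.285 in NC, −0.367 in OE and −0.309 in OE without tumour EIO-744. The glycolysis list was at −0.321, −0.313 and −0.198. None of these lists thus had a median of opposite sign in the lines.

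Olaparib without radiation gave 0 called genes, with 486 at an unadjusted p under 0.05. The interferon list then had 26 of 34 members above 0 (median 0.239), the sterol list a median of 0.104 and the glycolysis list one of −0.027. The effect of olaparib in irradiated minus unirradiated tumours was tested over all 24 tumours. With edgeR 0 genes were called and 588 were at an unadjusted p under 0.05, while DESeq2 called 7 (Clca3a2, Dct, Dsc3, Dsg1a, Fcgbp, Krt15 and Psapl1), tumour EIO-744 being the highest in 5 of them, and 4 without that tumour. No gene of the interferon, sterol or glycolysis lists passed adjustment in this test. At an unadjusted p under 0.05 the difference held for 10 of 27 sterol genes (list median −0.534), 1 of 34 interferon genes and 1 of 30 glycolysis genes, against 3.55% of all 16560 genes tested. Fdft1, one of the 10, differed by −1.02. These list counts were not repeated without EIO-744 or I-739. Within the irradiated tumours the count of lower sterol genes fell without either of these tumours, as given above.

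**Figure D5:**
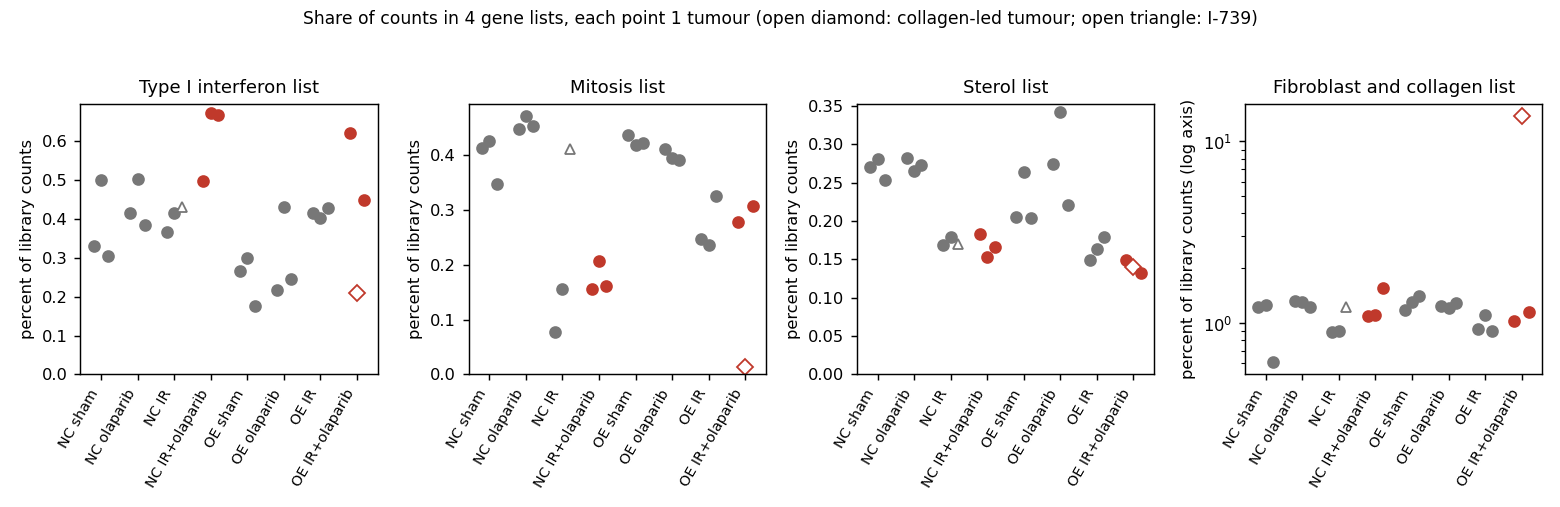
Summed share of counts in percent (y axis, log axis for the fibroblast list) of 4 gene lists in every tumour of the series by group (x axis), with EIO-744 as an open diamond and I-739 as an open triangle. The interferon share is 0.367% to 0.431% with radiation alone, 0.449% to 0.672% in 5 combination tumours and 0.210% in tumour EIO-744, and the unirradiated tumours span 0.175% to 0.503%.

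The written labels give a partly different set of 12 irradiated tumours. It holds OE olaparib tumours EO-701 and EO-703, NC olaparib tumour O-724 and NC sham tumour S-759, all unirradiated by code. EIO-713, EIO-744, IO-731, I-732 and I-736 stay in the same arm under both labels, so the 2 comparisons are not independent and cannot settle which label is right. In that set the interferon and sterol lists kept their direction. The DNA replication list turned in sign, and the glycolysis list lost most of its lean. The interferon list had 34 of 34 members above 0 with a median of 0.357 and 0 at an unadjusted p under 0.05, and DNA replication had 32 of 37 above 0 (0.099). The sterol list had 6 of 27 above 0 (−0.182) and the glycolysis list 12 of 30 (−0.024).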

How the data were processed

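Total RNA of 24 tumours was sequenced, and the authors deposited one table of counts per gene and tumour. Per the submitters' processing notes, fastp, HISAT2, HTSeq and the build mm10 were used; their versions, the annotation and the strand setting are not given in the sources used here. Counts of overlapping genes and of near-identical copies are therefore uncertain. The table held 27368 genes.

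From the deposited counts, genes with low counts were removed (filterByExpr over the 4 irradiated groups), and edgeR 4.0.16 in R 4.3.3 fitted a quasi-likelihood model with line and olaparib over 12 tumours, with TMM scaling and Benjamini-Hochberg adjustment. Models with 4 or 8 group means gave values per line and against unirradiated tumours. CPM are scaled by TMM. Alternatives used DESeq2 1.42.0 (size factors; Wald test), limma 3.58.1 with quality weights, no filter, all 24 tumours, no line term, the written labels, and leaving out tumours. Scripts were tested on simulated data. No pair of libraries agreed within sampling noise.

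Named genes are the 10 of smallest p per direction with at least 1 CPM on average and no predicted gene, up to 3 per list, a set of repair and response genes, and members given by level. The members and lists were chosen with earlier results of these data known. Some results are not reported here.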

Additional observations from a re-analysis of the deposited data

Results flagged for a closer look

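In groups of 6, a tumour was marked when its gap to the nearest other tumour exceeded 0.625 of the group's range. Of 210 groups tested, 36 were marked, and chance marks about 1 in 20. Tumour EIO-744 accounted for 20.

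In tumour EIO-744, compared with the nearest combination tumour, Col1a1 was 43300 CPM (1270), Col3a1 43600 (2970), Saa3 4910 (128), Mmp3 1520 (41.5), Lum 1260 (66.6) and Acta1 1360 (266). Abcg2 was 48.2 CPM (17.0), Pdcd4 80.8 (43.1), Plk2 130 (99.7), Reg1 27.3 (1.30), Crocc2 9.08 (2.93), Ccl24 7.88 (1.65), Col8a2 2.50 (0.397) and Nlgn3 1.33 (0.299). It was the lowest for Trp53bp1 at 36.4 CPM (58.6), Ifit1 at 41.3 (141) and Cmpk2 at 12.5 (50.7). Its 20 most abundant genes took 19.2% of counts, fibroblast genes 13.8% and muscle genes 0.539%.

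Among radiation-alone tumours, I-739 was marked for Cdkn1a at 332 CPM (nearest 602), Ccng1 at 403 (598), Lgals9 at 113 (138) and Col3a1 at 2160 (1460). I-732 was marked for Myh4 at 5620 CPM (369), Acta1 at 2300 (387), Saa3 at 835 (198), Bnip3 at 322 (142), Gsk3a at 115 (93.8), Suds3 at 102 (89.1) and a muscle share of 2.27% (0.235%). I-736 was marked for Krt14 at 149 CPM (1.18), Krt5 at 51.7 (0.758) and Gapdh at 35.6 (47.5). EI-752 was marked for Egln1 at 127 CPM (88.2) and EI-742 for Reg1 at 1.08 (0.22).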

How the results depend on the processing

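Every alternative run called 0 genes for olaparib added to radiation. At an unadjusted p under 0.05 the leave-one-out fits held 170 to 912 genes. DESeq2's Wald test called 53 genes in OE and 7 for irradiated minus unirradiated, where edgeR called 0. No paired analysis was possible because the numbers in the identifiers are mouse numbers that no groups share. Of 96 named genes, 74 kept their sign throughout, and 57 of 1920 values took the opposite sign, 0 of them past the threshold; the cause was not tested. Vmp1 was at −0.00049 with DESeq2 size factors, −0.000452 with its Wald test and −0.00973 without a filter. With limma quality weights the log2 differences were Polq 0.00248, Brca1 0.0792, Brca2 0.279, Trp53bp1 0.0212, Mki67 0.0100, Cxcl10 0.429, Saa3 −0.958, Vmp1 −0.0459, Cgas 0.0972, Sting1 −0.0213, Krt5 −1.31, Krt14 −2.12, Krt8 0.0263 and Krt18 0.038. Without tumours EIO-744 and I-732 they were Saa3 −0.188, Abcb1a 0.142, Abcb1b 0.106 and Krt14 −0.0404. Without tumours EIO-744 and I-739, chosen after seeing the data, they were Parp2 0.00674, Polq 0.274, Brca1 0.257, Brca2 0.362, Trp53bp1 0.139, Mki67 0.198, Cxcl10 0.533, Saa3 −1.30, Abcg2 −0.187, Vmp1 −0.0772, Cgas 0.181, Sting1 −0.0221, Krt14 −0.0685 and Krt8 0.0678. The leave-one-out ranges that crossed 0 were Ccl5 −0.0298 to 0.38, Acta1 −3.23 to 1.12, Brca2 −0.41 to 0.10, Ccng1 −0.00702 to 0.17, Cxcl10 −0.24 to 0.21, Vmp1 −0.14 to 0.062, Sting1 −0.021 to 0.21, Trp53bp1 −0.20 to 0.0037, Saa3 −1.11 to 4.63, Abcb1a −0.23 to 0.052, Abcb1b −0.42 to 0.061, Abcg2 −0.0063 to 0.78 and Mdm2 −0.0302 to 0.38. Depth limits Ifnb1, the Ifna genes and other genes under 1 CPM.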

Other observations

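Inflammatory and stress gene groups took a larger share of counts in the collagen-led tumour EIO-744 than in any other irradiated tumour, and no other combination tumour exceeded the highest radiation-alone share. The list of NF-kB and acute inflammation genes had 26 of 29 members above 0 (median 0.421), and 14 above 0 without that tumour (−0.009). It took 0.149% to 0.675% of counts with olaparib, 0.675% being EIO-744 and 0.165% the next, against 0.139% to 0.226% with radiation alone. Genes of senescence-associated secretion had 21 of 28 above 0 (median 0.328) and 14 without it (−0.003). Immediate early genes, which respond to stress within minutes, had 19 of 21 above 0 (median 0.532) and 5 without it (−0.051).

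Genes of protein synthesis and respiration differed little. Cytosolic ribosomal protein genes had 0 of 24 members above 0 with a median of −0.132, and nuclear genes of oxidative phosphorylation 3 of 22 with −0.099. The mitochondrially encoded genes went the other way, with 13 of 13 above 0 (median 0.571, and 0.276 without EIO-744). The share of mitochondrial genes was 1.34% ± 0.393 (SD, n = 6) with radiation alone and 1.79% ± 0.751 (SD, n = 6) with olaparib (exact permutation test within line, two-sided, p = 0.205). Apoptosis genes of the BCL2 family and its partners had 17 of 27 above 0 (median 0.055), and the NRF2 and glutathione list had 8 of 23 (−0.028).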
